A study of Danio rerio with 20 samples.

Results

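The members of the Rev-erb, Ror and Dec loop of the circadian clock measured here were nr1d1, nr1d2a, nr1d2b, rorab and bhlhe40. They were chosen by name and gene identifier and make up 5 of the 32512 genes in the count table. RNA was sequenced from whole zebrafish larvae at 5 dpf in 20 libraries, with 1 library for each of 5 conditions at ZT3, ZT9, ZT15 and ZT21, where ZT is the time in hours after lights on. The conditions were untreated wild-type siblings, rx3 weak mutants (allele t25181, homozygous) and rx3 strong mutants (allele t25327, homozygous), followed by wild-type siblings or rx3 strong mutants that were kept in 25 µM dexamethasone (DEX), a synthetic glucocorticoid. Each library pooled 30 larvae from 1 flask, raised at 28 °C in cycles of equal light and dark. Both mutants lack eyes, because rx3 is needed for eye formation, and the strong allele also leaves few corticotropes, the pituitary cells that drive cortisol production, while the weak allele leaves a normal daily cortisol rhythm. The untreated libraries are labelled untreated by the sample labels and DMSO by the table's columns. The labels give a mixed strain, whereas the study's methods name AB for the wild-type fish. The mutant alleles are separate lines, so allele and line background cannot be told apart between the mutants.

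In vertebrate clocks, CLOCK and BMAL proteins activate genes through E-box elements, and the Per and Cry proteins close the main feedback loop. A second loop is formed by the Rev-erb nuclear receptors (nr1d1, nr1d2a and nr1d2b), which repress genes that carry ROR elements, among them the Bmal genes in mouse, and by the Ror receptors such as rorab, which activate through the same elements. bhlhe40, also called Dec1, encodes a basic helix-loop-helix repressor that binds E-boxes. rorab is thus an activator in a loop otherwise made of repressors.

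Total counts were 16427280 to 22204708 in the untreated libraries and 12586879 to 49738048 in the DEX libraries. Levels are given as CPM (each gene's count relative to the library's total) scaled with edgeR's TMM factors, and every member was counted at least 41 times in every library. The lowest of these, nr1d1 in wild-type siblings at ZT9, was 2.27 CPM with an exact Poisson 95% interval of 1.63 to 3.08, which covers counting error only. No condition had a second library at any time point. The error of each level or time test is thus what its factors, such as genotype and time point, leave unexplained. A genotype difference that varied with time therefore counts as error there, and the p-values set each effect against this error. In bulk larvae, fewer cells of a type and less RNA per cell cannot be told apart. The glucocorticoid target fkbp5, a check of the strong genotype, averaged 104 CPM in untreated wild-type siblings, 101 CPM in rx3 weak and 12.7 CPM in rx3 strong mutants. The hormone precursor gene pomca, which corticotropes and other cells express, was not lower in strong mutants than in wild-type siblings, with means of 4.20 and 3.55 CPM (log2 difference 0.19 ± 0.18), and averaged 6.69 CPM in weak mutants. The photoreceptor markers summed to 3635 to 4545 CPM in untreated wild-type siblings, 102 to 294 CPM in rx3 weak and 7.65 to 12.4 CPM in rx3 strong mutants over the 9 measured of 12 listed, none of them at 0 in all libraries of a condition.

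nr1d1, which encodes Rev-erb alpha, was high at night's end and low in the late light phase. In wild-type siblings it measured 60.0, 2.27, 7.0 and 97.3 CPM at ZT3, ZT9, ZT15 and ZT21. In rx3 weak mutants it measured 41.1, 2.18, 4.20 and 104 CPM. In rx3 strong mutants it measured 29.6, 2.61, 7.39 and 65.3 CPM. All 3 genotypes shared the order of the time points, and the highest level exceeded the lowest 42.8-fold in wild-type siblings, 47.8-fold in rx3 weak and 25.1-fold in rx3 strong mutants.

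nr1d2a, 1 of a pair of zebrafish Rev-erb beta genes, had a shallower pattern with its minimum at ZT9. It measured 53.3, 18.8, 52.0 and 60.4 CPM in wild-type siblings over the same time points. The values were 37.8, 19.1, 44.8 and 58.6 CPM in rx3 weak mutants. In rx3 strong mutants they were 36.8, 10.9, 35.2 and 29.7 CPM. The strong mutants were lowest at each of the 4 time points, but at ZT3 they matched the weak mutants within counting error. The 95% counting intervals there were 34.1 to 39.7 CPM in strong and 35.3 to 40.4 CPM in weak mutants. The highest level was 3.06- to 3.39-fold above the lowest in the 3 genotypes.

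nr1d2b, the other Rev-erb beta gene, peaked at ZT3. It measured 235, 40.6, 41.05 and 149 CPM in wild-type siblings. The levels of rx3 weak mutants were 214, 34.7, 23.7 and 152 CPM. In rx3 strong mutants they were 228, 38.3, 31.5 and 159 CPM. The genotypes lay close together at ZT3, ZT9 and ZT21, and were spread from 23.7 to 41.05 CPM at ZT15.

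rorab was highest in the light phase and lowest at ZT15. In wild-type siblings it measured 99.1, 103, 30.6 and 49.0 CPM. In rx3 weak mutants it measured 78.6, 51.3, 17.4 and 26.5 CPM. In rx3 strong mutants it measured 66.5, 49.0, 21.1 and 30.4 CPM. Both mutants were below the wild-type siblings at each of the 4 time points.

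bhlhe40 had a narrow trough at ZT15. It measured 157, 122, 4.91 and 166 CPM in wild-type siblings. The rx3 weak mutants measured 126, 109, 2.95 and 109 CPM, lower than wild-type siblings at each time point. The rx3 strong mutants measured 128, 92.5, 6.61 and 100.1 CPM. The highest level exceeded the lowest 33.7-fold in wild-type siblings, 42.6-fold in weak and 19.3-fold in strong mutants. In each genotype the 3 other time points lay far above ZT15 and close to each other.

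**Figure D1:**
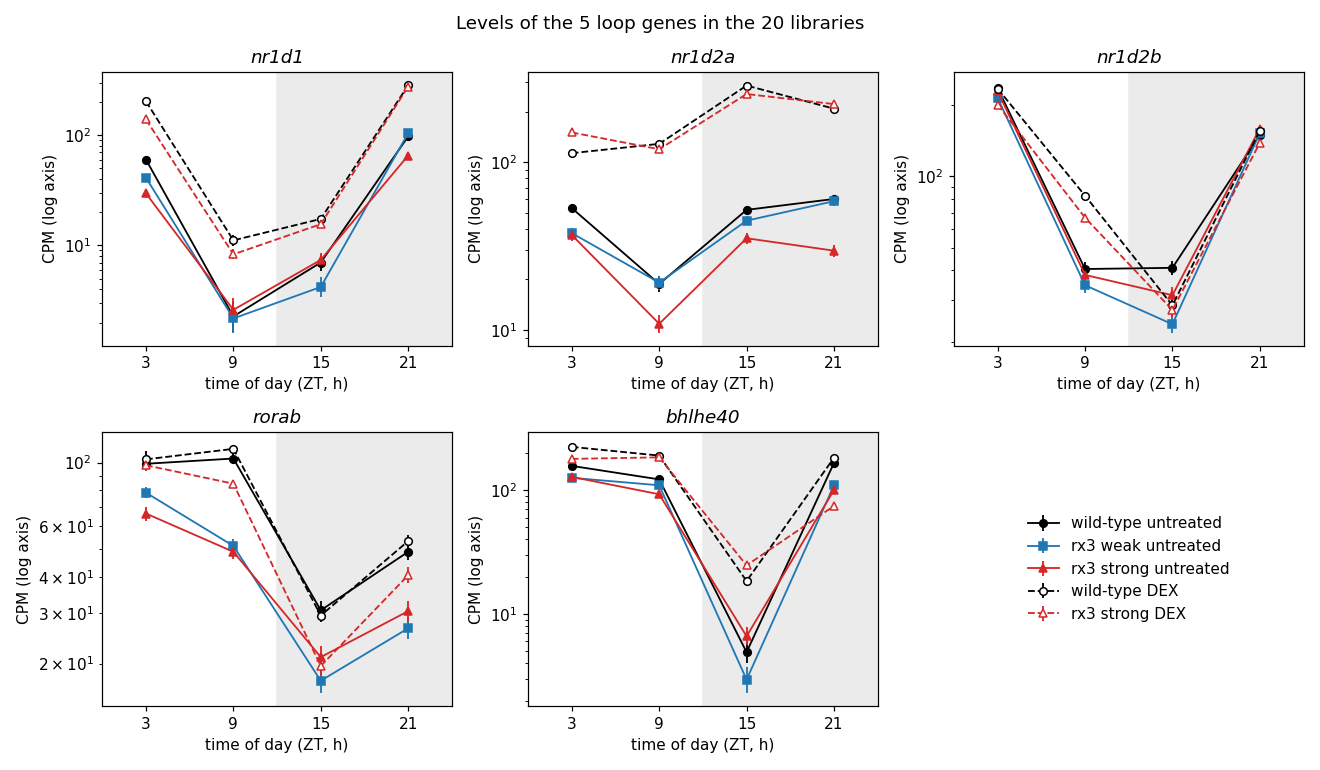
CPM (log axis) of each member against time of day (ZT in hours, dark phase shaded), with 1 point per library and bars for the 95% counting interval. Solid lines are untreated and dashed lines DEX libraries; nr1d1 and nr1d2a are higher in the DEX libraries at all 4 time points, while bhlhe40 has its minimum at ZT15 in all 5 conditions.

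Levels were compared between members only per length of the gene, as CPM per kilobase. In untreated wild-type siblings the mean over the 4 time points was 76.9 ± 62.1 CPM per kb for nr1d2b, 45.5 ± 30.0 for bhlhe40, 28.1 ± 11.3 for nr1d2a, 17.3 ± 8.91 for rorab and 14.7 ± 16.01 for nr1d1 (SD, n = 4 time points). Each neighbouring pair in this order overlapped in range, since the SD holds the daily change. In the wild-type DEX libraries nr1d2a came first, with a mean of 112 ± 48.8 CPM per kb.

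Time of day changed all 5 members. In the untreated libraries, 17.9% of the 22845 genes tested had a time-of-day effect at an adjusted p under 0.05 (edgeR's quasi-likelihood test, Benjamini-Hochberg adjustment), and all 5 members passed, with adjusted p from 2.75e-12 for nr1d2b to 6.59e-07 for nr1d2a. In the DEX libraries 12.5% of 23411 genes passed, and again all 5 members, with adjusted p from 1.93e-05 for nr1d1 to 0.0142 for nr1d2a. The call of nr1d2a in the DEX libraries was lost without the rx3 strong library at ZT9, where the adjusted p was 0.0508.

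The changes between neighbouring time points had an order among the members. From ZT3 to ZT9 the 3 Rev-erb genes were lowered, in a step where 2.18% of genes were called and 1.47% fell. The log2 differences were -4.16 ± 0.24 for nr1d1, -2.59 ± 0.12 for nr1d2b and -1.42 ± 0.14 for nr1d2a (SE from the edgeR fit). rorab (-0.34 ± 0.12, adjusted p = 0.193) and bhlhe40 (-0.35 ± 0.15, adjusted p = 0.369, both by edgeR) were not called there. From ZT9 to ZT15, where 4.76% of genes were called (3.46% fell and 1.3% rose), the differences were -4.48 ± 0.19 for bhlhe40 and -1.52 ± 0.12 for rorab, while nr1d2a rose by 1.45 ± 0.14 and nr1d1 by 1.38 ± 0.27.

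From ZT15 to ZT21 4 members rose, in a step with 10.1% of genes called and 5.71% rising. bhlhe40 rose by 4.68 ± 0.19, nr1d1 by 3.83 ± 0.21, nr1d2b by 2.28 ± 0.12 and rorab by 0.61 ± 0.12 on the log2 scale. nr1d2a (0.14 ± 0.13) was not called. ZT21 and ZT3 were treated as neighbours on the daily circle, so the last step uses the same ZT3 libraries as the first. No second ZT3 was sampled, so a change with time of day cannot be told apart from one with larval age. From ZT21 to ZT3, 11.4% of genes were called (7.17% rose and 4.2% fell). rorab rose by 1.25 ± 0.12 and nr1d2b by 0.56 ± 0.11, and nr1d1 fell by 1.05 ± 0.18. nr1d2a (-0.17 ± 0.13) and bhlhe40 (0.15 ± 0.15) were not called.

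The other clock genes of a list of 42 gave the setting for these steps. Of the 38 tested, 34 had a time-of-day effect without DEX and 30 with it. From ZT3 to ZT9, 15 of the 38 fell and 12 rose, led by PER1 ENSDARG00000012499 (-3.71 ± 0.11) and dbpb (-3.42 ± 0.12) among the falls, and rorcb (2.79 ± 0.24) and cry3b (2.42 ± 0.12) among the rises. From ZT15 to ZT21, 18 rose and 14 fell, with the largest rise again in that PER1 gene (6.19 ± 0.13) and the largest fall in cry3b (-3.93 ± 0.14). Of 8 genes known as ROR-element targets in mouse, all 8 passed the time-of-day test in the untreated libraries, and from ZT15 to ZT21 6 of them fell and 2 rose.

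Across the 20 libraries, each centred on the mean of its condition, bmal1a and bmal1b, which encode partners of CLOCK, both had a Pearson r of -0.91 with nr1d1, and of 0.02 and 0.01 with rorab. With nr1d2b, r was -0.70 and -0.71, and with nr1d2a -0.42 and -0.38. Of the other 6 ROR-element targets, clocka, clockb, nfil3 and npas2 lay between -0.83 and -0.76 with nr1d1, while the CRY1 genes lay at 0.26 and 0.45 with nr1d1 and at 0.90 with rorab. The CRY1 genes also lay at 0.67 and 0.81 with nr1d2b, -0.45 and -0.39 with nr1d2a, and 0.94 and 0.90 with bhlhe40. With rorab, clocka and clockb lay at -0.54 and -0.42, npas2 at 0.34 and nfil3 at 0.22. In the same order, r was -0.95, -0.86, -0.49 and -0.46 with nr1d2b, so clocka and clockb were more opposed to nr1d2b than to nr1d1. It was -0.81, -0.61, -0.18 and -0.21 with bhlhe40, and -0.04, -0.08, -0.58 and -0.41 with nr1d2a. These correlations are descriptions: the libraries share 4 sampling times, so genes that peak at a given time correlate whatever links them. They also pool untreated and DEX libraries. The time courses of nr1d2a and nr1d2b differed between these, as given below, so their r values here need not hold within either treatment. Among 9848 genes, the 3 most like nr1d1 were ciartb (r = 0.99), PER1 ENSDARG00000056885 (0.96) and ZNF395 (0.96). For nr1d2a they were cdkn1a (0.91), SLC16A13 (0.79) and id2b (0.78). For nr1d2b they were HSF2 (0.98), cipcb (0.97) and PER1 ENSDARG00000012499 (0.96). For rorab they were IDH1 (0.94), CTH (0.94) and RPA1 (0.94), and for bhlhe40 cyp2p7 (0.96), cyp2p6 (0.95) and CRY1 ENSDARG00000045768 (0.94). Symbols in capitals are shown as the reference name tables give them. PER1 and CRY1 name more than a single zebrafish gene there, so their gene IDs are added. Among the members, nr1d1 and nr1d2b were most alike (r = 0.85), followed by rorab and bhlhe40 (r = 0.79), and nr1d2a and rorab were opposed (r = -0.61).

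The comparison of the genotypes sets mutants with and without a normal cortisol rhythm against wild-type siblings. In rx3 strong mutants, nr1d2a was 1.65-fold lower than in wild-type siblings (log2 difference -0.72 ± 0.12, adjusted p = 0.000211) and rorab 1.67-fold lower (-0.74 ± 0.10, adjusted p = 3.81e-05), by edgeR with time point as a factor. Both were lower at 4 of 4 time points. Of all genes, 18.6% were called in this comparison and 10.2% were lower, against 2 of the 5 members. With no time point factor the log2 differences were -0.73 for nr1d2a and -0.77 for rorab, but neither was called (edgeR adjusted p = 0.339 and 0.395). nr1d1 (-0.50 ± 0.18, adjusted p = 0.0666), bhlhe40 (-0.35 ± 0.14, adjusted p = 0.0998) and nr1d2b (-0.12 ± 0.10, adjusted p = 0.476) did not pass in the edgeR fit. The calls of nr1d1 and bhlhe40 depended on single libraries: without the strong library at ZT15 the edgeR adjusted p was 0.00293 for nr1d1 and 0.00105 for bhlhe40, and both also passed without the weak library at ZT15 (0.0224 and 0.0375) and with no filter on low counts (0.00658 and 0.0232). nr1d1 also passed without the weak library at ZT21, with an adjusted p of 0.0380.

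In rx3 weak mutants, rorab was 1.71-fold lower than in wild-type siblings (-0.77 ± 0.10, edgeR adjusted p = 2.77e-05), 1 of 5 members where 14.1% of genes were called and 7.63% were lower. nr1d2a differed by -0.20 ± 0.12 (adjusted p = 0.297) in the same edgeR fit. The others measured -0.41 ± 0.14 for bhlhe40 (adjusted p = 0.0573), -0.29 ± 0.10 for nr1d2b (0.0670) and -0.31 ± 0.18 for nr1d1 (0.291). bhlhe40 passed without the weak library at ZT9 (adjusted p = 0.0323) and the strong ones at ZT15 (0.00401) or ZT21 (0.0394), and nr1d2b without the ZT21 library of wild-type siblings (0.0274) or weak mutants (0.0379), in the edgeR fits. Both passed with no filter on low counts (0.00503 and 0.0262), bhlhe40 with DESeq2's size factors (0.0498) and nr1d2b with DESeq2's test (0.0374).

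Set against rx3 weak directly, rx3 strong mutants had nr1d2a 1.44-fold lower (-0.52 ± 0.12, edgeR adjusted p = 0.00656), where 11.8% of genes were called and 7.08% were lower. The log2 difference of nr1d2a was negative at 4 of 4 time points, but ranged from -0.98 at ZT21 to -0.04 at ZT3, a near tie. rorab differed by 0.03 ± 0.11 on the log2 scale between the mutants (adjusted p = 0.897 by edgeR). The lower rorab was therefore measured in both eyeless mutants, and the lower nr1d2a in the strong mutants against both other genotypes. Several marker lists also differed between the genotypes, though not always in the same comparisons or direction as these genes. The photoreceptor markers were lower in 9 of 9 cases in the strong and 9 of 9 in the weak mutants than in wild-type siblings, and in 8 of 9 in strong than in weak mutants. Of the glucocorticoid response list, 6 of 7 genes were lower in the strong mutants than in wild-type siblings and 4 of 7 lower than in weak mutants, while 1 of 7 was higher and 0 lower in the weak mutants than in wild-type siblings. The pituitary markers were lower for 3 of 5 tested in strong mutants against wild-type siblings and for 2 of 5 against weak mutants, and in weak mutants against wild-type siblings 1 was lower and 1 higher. Of 6 markers of larval tissues, 3 were higher in strong mutants than in either other genotype, with the skin keratin krt4 at a mean of 7557 CPM in wild-type siblings, 8541 CPM in weak and 15182 CPM in strong mutants, and 1 of 6 was higher in weak mutants than in wild-type siblings. The part of these lists in the rorab and nr1d2a results was not tested.

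**Figure D2:**
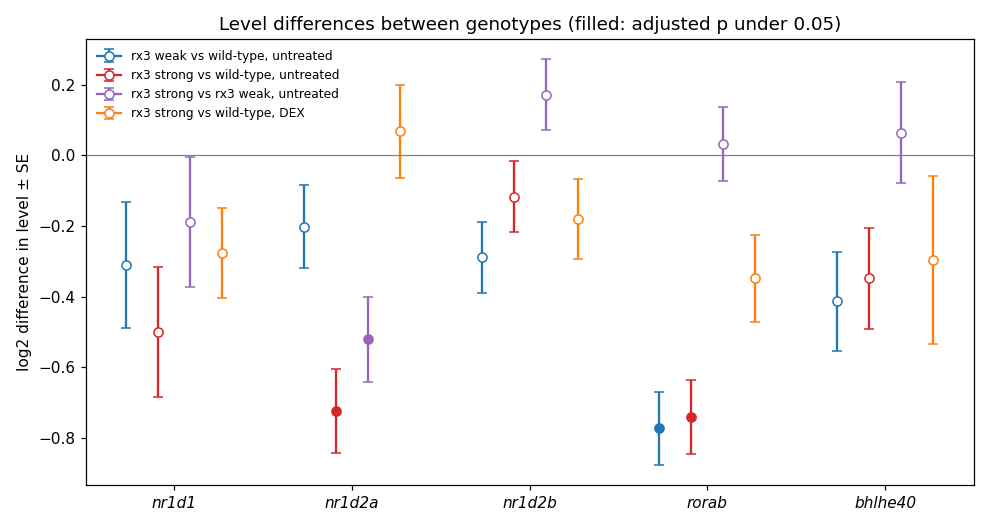
Log2 difference in level between genotypes for each member, from edgeR fits with time point as a factor, with bars for the standard error and filled points for an adjusted p under 0.05. rorab lies at -0.77 and -0.74 in weak and strong mutants against wild-type siblings, and nr1d2a at -0.72 in the strong and -0.20 in the weak mutants.

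Of the other clock genes, 15 of 38 differed between strong mutants and wild-type siblings, 14 of them lower and 1 higher. Their median log2 difference was -0.16, beside 0.01 over all genes tested. The largest falls were nfil3-6 (-1.88 ± 0.22), of a family that represses D-box genes in mammals, and rorb (-1.31 ± 0.14), another Ror receptor, and the rise was tefa (0.35 ± 0.08). In weak mutants 9 of 38 were lower and 0 higher, with rorb (-1.62 ± 0.15) and nfil3-6 (-1.31 ± 0.20) leading. rorb averaged 10.7 CPM in untreated wild-type siblings, 3.54 CPM in weak and 4.33 CPM in strong mutants.

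No member was called as differing in daily pattern between genotypes, by a test that cannot show the patterns to be alike. The test of a difference in 24 h rhythm called 0 genes for strong against wild-type, 0 for weak against wild-type and 0 for strong against wild-type under DEX, so 0% of all genes in each (edgeR's quasi-likelihood test; 656, 252 and 305 genes had an unadjusted p under 0.05). DESeq2 called 6, 1 and 37 genes, none of them a member. The edgeR fits left few residual degrees of freedom, and a pattern that a cosine cannot follow counts as error in them. In each, fewer genes had an unadjusted p under 0.05 than an even spread of p-values would give. nr1d1 had an unadjusted p of 0.028 for the strong mutants, with a fitted peak-to-trough amplitude of 6.19 in wild-type siblings and 5.02 in strong mutants on the log2 scale. Its fitted peak lay at 23.0 h in wild-type siblings and 22.6 h in strong mutants.

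A single 24 h cosine described the members unequally. Its share of the variance over the 4 time points in untreated wild-type siblings was 99.0% for nr1d1, 97.8% for nr1d2b and 93.7% for rorab, but 77.4% for nr1d2a and 69.4% for bhlhe40, whose single low time point the cosine could not follow. A cosine with free phase can follow most patterns of 4 points, even random ones, so a large share alone is no sign of a 24 h rhythm. With the study's selection among 15 rhythm models by the Bayesian information criterion, nr1d2a, rorab and bhlhe40 were assigned to 1 rhythm shared by the 3 genotypes, nr1d2b to a model in which wild-type siblings differed and nr1d1 to one in which strong mutants differed, with weights of 0.713, 0.337, 0.718, 0.352 and 0.911. The choice for nr1d2b was a near tie, with a weight of 0.352 against 0.307 for the shared rhythm. The shared rhythm took 11.9% of the 19605 genes above the level threshold. On simulated rhythms the criterion often chose another model than the simulated one at 12 libraries, so these choices are a description and no difference between genotypes is read from them. The corrected Akaike criterion placed nr1d1, nr1d2b and rorab in the shared rhythm and nr1d2a and bhlhe40 in no rhythm. The last 2 were near ties, with weights of 0.482 against 0.470 for the shared rhythm in nr1d2a, and 0.507 against 0.446 in bhlhe40. With the authors' log2 table or log2 CPM, rorab moved to a model in which weak mutants differed, with weights of 0.343 and 0.339. These were near ties too, against 0.307 and 0.330 for the shared rhythm. Of 5 models for the DEX libraries, 1 rhythm shared by both genotypes was chosen for nr1d2b, rorab and bhlhe40, and for 25.8% of 18367 genes, and different rhythms for nr1d1 and nr1d2a, with the same limit; with the authors' log2 table nr1d2a moved to the shared rhythm, with a weight of 0.598.

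The DEX libraries ask how the members stand when a glucocorticoid is supplied at a constant dose. The labels give them another library kit than the untreated libraries, whereas the study's methods name a single kit for all. If the labels hold, kit and treatment cannot be told apart. The sample titles also number the DEX and untreated libraries as separate series, so with either account of the kit, series and treatment cannot be told apart. The difference between DEX and untreated libraries was not tested. nr1d1 measured 203, 11.1, 17.4 and 283 CPM at ZT3, ZT9, ZT15 and ZT21 in wild-type DEX libraries and 139, 8.31, 15.6 and 275 CPM in rx3 strong DEX libraries. nr1d2a measured 113, 129, 287 and 209 CPM in wild-type and 151, 119.5, 255 and 222 CPM in strong DEX libraries. The lowest of these nr1d2a values was above every untreated library, and its highest time point was ZT15 in both genotypes.

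nr1d2b measured 234, 82.7, 28.5 and 156 CPM in wild-type DEX libraries and 200.2, 66.8, 27.3 and 138 CPM in rx3 strong DEX libraries. The ZT9 values were above those of all untreated libraries at that time. rorab measured 103, 112, 29.4 and 53.3 CPM in wild-type and 97.9, 84.5, 19.6 and 40.6 CPM in strong DEX libraries. bhlhe40 measured 223, 189.9, 18.4 and 182 CPM in wild-type and 179, 184, 24.7 and 74.4 CPM in strong DEX libraries, so that its trough stayed at ZT15 but was shallower than in any untreated condition.

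Between DEX and untreated libraries of the same genotype and time, nr1d2a was higher by 2.03 ± 0.75 on the log2 scale in wild-type siblings and by 2.81 ± 0.59 in strong mutants (SD, n = 4 time points). nr1d1 was higher by 1.71 ± 0.40 and 1.75 ± 0.52. rorab differed by 0.06 ± 0.08 in wild-type siblings and 0.41 ± 0.38 in strong mutants, and nr1d2b by 0.14 ± 0.65 and 0.05 ± 0.50. bhlhe40 differed by 0.79 ± 0.76 and 0.73 ± 0.97. Markers of larval tissues also differed between these libraries, in both directions and also within muscle. In wild-type siblings the mean without and with DEX was 4977 and 1289 CPM for the muscle myosin myhz2, but 3025 and 7815 CPM for the muscle gene ckma. It was 7557 and 1708 CPM for krt4, and 211 and 128 CPM for the neuronal gene elavl3. For the liver gene fabp10a it was 234 and 926 CPM, and for the globin hbae1.1 3.76 and 32.5 CPM. Their part in the members' differences was not tested.

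Within the DEX libraries, which share a kit, none of the 5 members was called between strong mutants and wild-type siblings, where 7.8% of genes were. nr1d2a differed by 0.07 ± 0.13 (adjusted p = 0.857) and rorab by -0.35 ± 0.12 (adjusted p = 0.137) in the edgeR fit. rorab was lower at 4 of 4 time points. nr1d1 was at -0.28 ± 0.13, bhlhe40 at -0.30 ± 0.24 and nr1d2b at -0.18 ± 0.11. The photoreceptor markers summed to 3661 to 7002 CPM in wild-type and 7.48 to 10.7 CPM in strong DEX libraries.

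The difference between the genotypes' responses can be tested, since a kit effect that is equal in both genotypes drops out. nr1d2a had an interaction of 0.77 ± 0.16 on the log2 scale (edgeR adjusted p = 0.0263), 1 of 5 members where 2.22% of genes were called and 1.41% had a positive value: the genotype difference of the untreated libraries was smaller in the DEX libraries. This call was lost without any 1 of the 8 untreated libraries of the fit, with the value staying between 0.67 and 0.85 and the adjusted p reaching 0.101. rorab was at 0.36 ± 0.16 (adjusted p = 0.342 by edgeR). Among the other clock genes 2 of 38 were called, both higher, nfil3-6 (1.86 ± 0.35) and hlfa (0.87 ± 0.19).

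The time course differed between DEX and untreated libraries for nr1d2a (edgeR adjusted p = 0.0195) and nr1d2b (0.0150), 2 of 5 members where 3.21% of genes were called. A kit effect that varied with the time point cannot be told apart from this. The call of nr1d2a was lost without the ZT3 or ZT9 library of untreated wild-type siblings or strong mutants, without the strong library at ZT15 or without the wild-type DEX library at ZT3, and that of nr1d2b without the same ZT3 or ZT9 libraries of untreated larvae, with adjusted p up to 0.118 and 0.0811. bhlhe40 (0.0982) passed with no filter on low counts (0.0219), with DESeq2 (0.00243) and without the wild-type DEX libraries at ZT15 (0.0320) or ZT21 (0.00634).

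**Figure D3:**
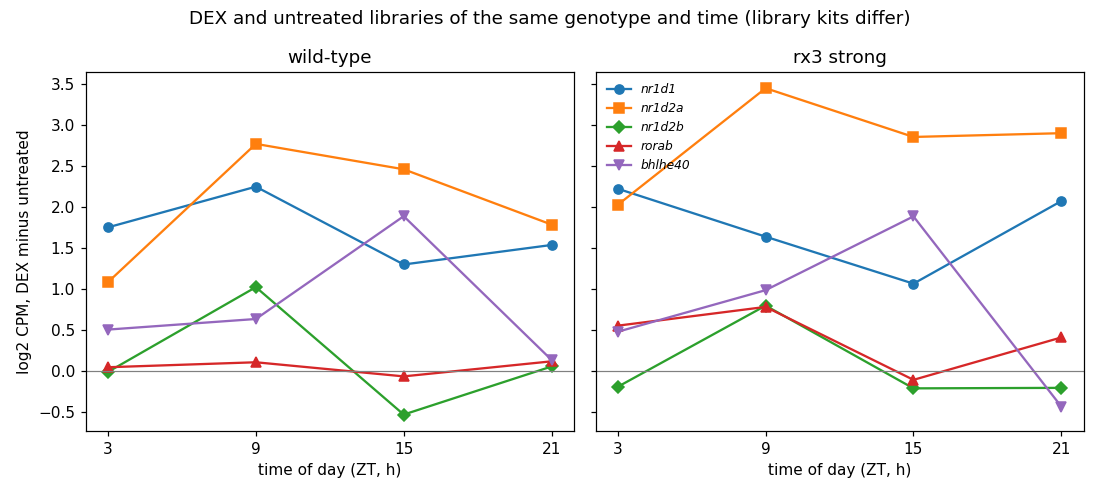
Log2 CPM of the DEX library minus the untreated library of the same genotype, plotted against time of day (ZT in hours) for each member, wild-type siblings on the left and rx3 strong mutants on the right; each point is a difference of 2 libraries, made with different kits according to the labels. nr1d2a lies between 1.09 and 2.77 in wild-type siblings and between 2.03 and 3.45 in strong mutants, while rorab stays within -0.10 to 0.79.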

How the data were processed

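Whole larvae were sequenced as poly(A) RNA. Per the study's methods, the authors used STAR for alignment to Zv9 and HTSeq for counting reads with 1 genomic match per Ensembl gene; the deposited counts are raw. A second deposited table holds log2 values after DESeq2 normalization and variance stabilization (1.90 to 19.4) and served as an alternative. No sample column was left unused (0 columns). Counts were tested with edgeR 4.0.16 in R 4.3.3 (TMM, filterByExpr, quasi-likelihood test, Benjamini-Hochberg adjustment over all genes tested, threshold 0.05), with genotype and time point as factors, separately on the 12 untreated and 8 DEX libraries, and on 16 for interactions. CPM on the log2 scale had a prior count of 2. The SE of an edgeR log2 difference was its size over the square root of the F value of its test. Rhythm models (15 untreated, 5 DEX) were fitted to variance stabilized counts with Python 3.11.15 and numpy 2.4.6; a mean of 6 and a weight of 0.3 or 0.5 were required. Alternatives were DESeq2 1.42.0 (size factors and test), no filter, no time point factor and leaving out each library. The edgeR tests and the choice of rhythm models were run on simulated data, and the DESeq2 test was not. The simulated counts for edgeR had the same spread between libraries set for all genes. The members and gene lists were chosen with earlier results of these data known. The rule named the members, the 3 genes most like each (mean of at least 10 CPM) and the 2 largest rises and falls among other clock genes. Symbols came from reference name tables, which matched 21939 gene IDs. Sequences and coordinates were not used here.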

Additional observations from a re-analysis of the deposited data

Results flagged for a closer look

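Within a condition, a library was set apart when its gap to the nearest of the 4 time points passed Dixon's critical value at 95% as a share of the range, which chance gives in about 1 in 20 groups, and a daily trough is itself such a pattern. bhlhe40 at ZT15 was set apart in wild-type siblings (0.913 of the range), rx3 weak (0.962) and rx3 strong mutants (0.891) and wild-type DEX larvae (0.919). nr1d2a at ZT9 was set apart in untreated wild-type siblings (0.872).

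By a test of the difference itself, nr1d2a differed between the 2 genotypes in its DEX response (edgeR adjusted p = 0.0263), a call lost without any 1 of the 8 untreated libraries (0.0533 to 0.101). The time course differed with DEX for nr1d2a (0.0195) and nr1d2b (0.0150), calls lost when single libraries were left out, with adjusted p up to 0.118 and 0.0811. The DEX and untreated libraries are separate series by their titles and differ in kit by the labels. Neither can be told apart from DEX in these time courses.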

How the results depend on the processing

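Of 75 results on members, 31 passed the threshold, and 23 of these kept their call under every alternative run. No called log2 difference changed its sign, but some uncalled ones did. That of nr1d1 between strong and weak mutants went from -0.19 to as high as 0.08 when single libraries were left out. Of 1125 recomputed values, 44 changed their call. Without the time point factor, the calls of nr1d2a and rorab between genotypes were lost at log2 differences of -0.49 to -0.77 (adjusted p = 0.339 and 0.395 for strong against wild-type, 0.490 for rorab in weak mutants and 0.644 for nr1d2a between mutants), and the genes called between genotypes numbered 2078 (strong against wild-type), 1652 (weak against wild-type), 1059 (strong against weak) and 585 (DEX). DESeq2's test called 5148 genes for time of day under DEX, 861 for the interaction and 2250 for time of day by DEX. It called 6, 1 and 37 genes for the rhythm differences, where no filter gave 79, 17 and 27; no filter gave 1478 for time of day by DEX. Leaving out single libraries, the steps called 172 to 647, 608 to 1253, 1356 to 2329 and 1229 to 3044 genes in order from ZT3. The DEX level comparison called 1085 to 1501, time of day under DEX 522 to 2941, the rhythm differences 0 to 12, 0 to 5 and 0 to 107, the interaction 213 to 691 and time of day by DEX 6 to 1417. The cause was not tested. Time point pairs the libraries of the genotypes, and the level tests with it as a factor are the blocked fits; the labels share no other replicate numbers. With 1 library per condition and time point, small differences were not detectable.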
